A study of Rattus norvegicus with 24 samples.

Results

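The comparison of cytokines under Givinostat at 24 h sets 3 arrays titled 24h_Giv_Cyt against 3 arrays titled 24h_Giv_Ctrl, 6 of the 24 arrays of the series, taken by the group in each title. The arrays measured microRNAs (miRs) in INS1, an insulin-secreting line from a rat insulinoma, so the cells are β-cell-like tumour cells and not islet cells. Both groups received 125 nM Givinostat, an inhibitor of lysine deacetylases. In 24h_Giv_Cyt, the cytokines IL-1β (150 pg/ml) and IFN-γ (0.1 ng/ml) followed 1 h later and stayed for 24 h, and 24h_Giv_Ctrl had none. For tests of difference, 24h_Cyt and 24h_Ctrl had the same cytokines or none without Givinostat, and 6h_Giv_Cyt and 6h_Giv_Ctrl were treated as the compared groups but for 6 h, with 3 arrays each. The question was which miRs differ with cytokines when deacetylases are inhibited. The deposited design text speaks of technical replicates and the paper of replicates, so the p-values measure only the spread between these samples.

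A miR pairs with messenger RNAs mainly through its seed, the bases near its 5′ end, and lowers their translation or stability, so miRs with the same seed share many targets. IL-1β activates the transcription factor NF-κB in β-cells, and miR-146a is a known NF-κB target that in turn lowers the adaptors through which IL-1β signals. Deacetylase inhibitors raise the acetylation of histones and of other proteins, transcription factors among them.

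Mature sequences are from RefSeq (GRCr8), which held 684 of the 758 miRs on the array. Capitals mark the seed, bases 2 to 8, and each sequence runs 5′ to 3′. Shown first are the miRs that passed the test under Givinostat, each beside a miR well above background with the same seed where one was measured.
miR-146a-5p: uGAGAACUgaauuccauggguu
miR-146b-5p: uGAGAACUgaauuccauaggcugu
miR-3584-5p: gGGAGGAGuccaggaggc
miR-93-5p: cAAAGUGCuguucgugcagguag
miR-106b-5p: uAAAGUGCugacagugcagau
miR-129-5p: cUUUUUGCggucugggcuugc

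The next set holds the seed families whose members lay together on one side in every array, without passing the test. They were picked for this from these data. Over all 758 miRs, 8.31% had every cytokine array above every control array and 15.3% had every one below.
miR-29a-3p: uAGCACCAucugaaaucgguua
miR-29b-3p: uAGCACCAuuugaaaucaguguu
miR-29c-3p: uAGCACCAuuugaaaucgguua
miR-132-3p: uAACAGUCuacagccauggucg
miR-212-3p: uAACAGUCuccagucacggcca
miR-103-3p: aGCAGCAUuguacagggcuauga
miR-107-3p: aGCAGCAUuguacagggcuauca

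Each array carried 12128 miR spots, 16 for each of 758 miRs, and no spot was saturated. The scanner software marks spots that are well above background, and a miR with 8 or more marked spots was counted so on that array. This held for 135, 142 and 136 miRs on replicates 1 to 3 of 24h_Giv_Ctrl, and for 197, 156 and 145 on those of 24h_Giv_Cyt. On all arrays of at least 1 of these groups it held for 143 miRs, called detected below, and on no array of either for 560. How precise the values are is limited by the number of arrays.

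Some of the 6 arrays stood apart. Over the 143 detected miRs, replicate 1 of 24h_Giv_Cyt correlated at 0.980 and 0.982 with replicates 2 and 3, against 0.995 between those. Replicate 3 of 24h_Giv_Ctrl correlated at 0.974 and 0.986 with replicates 1 and 2, against 0.994 between those. The lowest correlation among the 6 arrays, 0.937, was between these outlying arrays. Replicate 2 of 24h_Giv_Cyt had a raised background, with a median local background intensity of 28 where the other 5 arrays had 18.5 to 19.5, and a median negative control of 61 against 46 to 50. The cytokine arrays were also brighter: at the 75th percentile, background-subtracted intensity was 571, 542 and 487 in 24h_Giv_Cyt and 303, 452 and 435 in 24h_Giv_Ctrl. The part of brightness in the results was not tested beyond the values with brightness as a covariate. Replicate 1 of 24h_Giv_Ctrl and replicates 1 and 2 of 24h_Giv_Cyt lay on slide 4 and the other 3 arrays on slide 3, so each slide held both groups.

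With cytokines under Givinostat, miR-146a-5p and miR-3584-5p rose and miR-129-5p and miR-93-5p fell. These were the 4 of 758 miRs (0.528%) called by limma on array means, at a Benjamini-Hochberg adjusted p below 0.05 and an absolute log2FC above 0.14, a 1.1-fold difference. At an unadjusted p below 0.05 there were 93 miRs (12.3%). The 3 cytokine arrays all lay above the 3 others for 63 miRs (8.31%) and all below them for 116 (15.3%). Among the detected miRs these counts were 13 and 16, and the median log2FC was 0.00078, with 74 values above 0 and 69 below. A miR can count as detected through the group where it is high, as miR-146a-5p and miR-761 did through 24h_Giv_Cyt alone. The counts among detected miRs, here and below, therefore depend in part on the values compared. limma's pooled correlation over the spots, the paper's fit, called 43 miRs (5.67%), 34 higher and 9 lower, 3 of them among the 4. With only the 6 compared arrays in the fit, limma called 1, miR-146a-5p.

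miR-146a-5p, which restrains signalling from the IL-1 receptor, had log2 signals of 5.44, 5.43 and 5.50 on replicates 1 to 3 of 24h_Giv_Ctrl and of 6.14, 6.26 and 6.19 on those of 24h_Giv_Cyt. Every cytokine array lay above every other, and the groups were far apart relative to their spread. Its log2FC was 0.73 (SE 0.032, n = 3 arrays per group, adjusted p = 9.47e-12 by limma after Benjamini-Hochberg adjustment). All 3 arrays of 24h_Giv_Cyt and none of 24h_Giv_Ctrl had it well above background, so it was at least 1.18-fold higher. Such a bound sets the bright group's mean against a floor on each dim array, the weakest signal there that was well above background or the miR's own if larger. Within slide 4 the log2FC was 0.75 and within slide 3 it was 0.72, and with slide as a fixed block it was 0.74. It was called with the processed signal, which is background-subtracted, on either scaling, but since no control array had it well above background the size there depends on the floor and is not given. Without normalization between arrays the value was 1.05. Over all alternatives the adjusted p reached 0.00123 at most. The array's annotation (rn4) gives it a position on chromosome 10 from 28476387 to 28476405, a shorter stretch than the mature sequence.

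miR-146b-5p, which has the same seed, had log2 signals of 6.56, 6.70 and 6.87 in 24h_Giv_Ctrl and of 7.18, 7.53 and 7.23 in 24h_Giv_Cyt. The groups did not overlap, but arrays within each group varied several times more than for miR-146a-5p. The log2FC was 0.61 (SE 0.18, n = 3, adjusted p = 0.144 by limma after Benjamini-Hochberg adjustment), so it did not pass the test. It was 0.80 within slide 4 and 0.45 within slide 3, and 0.40 with array brightness as a covariate. The adjusted p was 1.35e-14 with the pooled correlation over the spots, and without replicate 1 of 6h_Giv_Ctrl, which enters through the shared spread alone, it was 0.0324. Processed signal scaled over detected miRs, and signal without normalization between arrays, also gave a call. miR-146b-5p has a gene of its own on another chromosome, so the members of this seed family are not neighbours.

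miR-3584-5p had log2 signals of 5.71, 5.73 and 5.72 in 24h_Giv_Ctrl and of 5.91, 6.06 and 6.14 in 24h_Giv_Cyt. The control arrays were nearly equal, and all cytokine arrays lay above them. The log2FC was 0.32 (SE 0.051, n = 3, adjusted p = 0.00306 by limma after Benjamini-Hochberg adjustment). Since 2 arrays of 24h_Giv_Cyt and none of 24h_Giv_Ctrl had it well above background, it was at least 1.06-fold higher. It was 0.27 within slide 4, 0.41 within slide 3 and 0.34 with slide as a fixed block. The call was lost in limma with only the compared arrays (adjusted p = 0.219) and with the processed signal scaled over all miRs (adjusted p = 0.159), whose size depends on the floor and is not given. The value was 0.63 without normalization between arrays, and over the alternatives the adjusted p lay between 4.24e-24 and 0.219.

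miR-129-5p, a miR enriched in the nervous system, had log2 signals of 8.58, 8.35 and 8.51 in 24h_Giv_Ctrl and of 7.52, 8.004 and 7.79 in 24h_Giv_Cyt. All cytokine arrays were lower, and the outlying replicate 1 was the lowest of them. The log2FC was -0.71 (SE 0.13, n = 3, adjusted p = 0.00824 by limma after Benjamini-Hochberg adjustment). It was -0.82 within slide 4, -0.64 within slide 3 and -0.73 with slide as a fixed block. Without replicate 1 of 24h_Giv_Cyt it was -0.58 (adjusted p = 0.0570), without replicate 1 of 24h_Giv_Ctrl -0.66 (adjusted p = 0.0601), and without both outlying arrays -0.57 (adjusted p = 0.240), and each of these ended the call. Leaving out the outlying replicate 3 of 24h_Giv_Ctrl alone kept it (-0.69, adjusted p = 0.0356). With only the compared arrays the adjusted p was 0.219, with the processed signal scaled over all miRs the value was -1.23 (adjusted p = 0.480) and without normalization between arrays -0.24 (adjusted p = 0.256). Over all alternatives the adjusted p lay between 0.00264 and 0.480.

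miR-93-5p, of the growth-promoting miR-106b/25 cluster, had log2 signals of 9.03, 8.98 and 9.19 in 24h_Giv_Ctrl and of 8.61, 8.68 and 8.77 in 24h_Giv_Cyt. The groups did not overlap, and each spread over less than the gap between their means. The log2FC was -0.38 (SE 0.070, n = 3, adjusted p = 0.00824 by limma after Benjamini-Hochberg adjustment), with -0.38 within slide 4, -0.31 within slide 3 and -0.35 with slide as a fixed block. Without replicate 1 of 24h_Giv_Cyt it was -0.34 (adjusted p = 0.0570), and without both outlying arrays -0.28 (adjusted p = 0.295). The pooled correlation over the spots did not call it (adjusted p = 0.519), nor did limma with only the compared arrays (adjusted p = 0.219) or with the processed signal scaled over all miRs (-0.92, adjusted p = 0.699). When the arrays were not normalized to each other its value was 0.066 (adjusted p = 0.709, the highest of the alternatives, the lowest being 0.00568), below the shift of that setting, 0.18 at the median of all miRs and 0.44 at that of the detected ones.

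**Figure D1:**
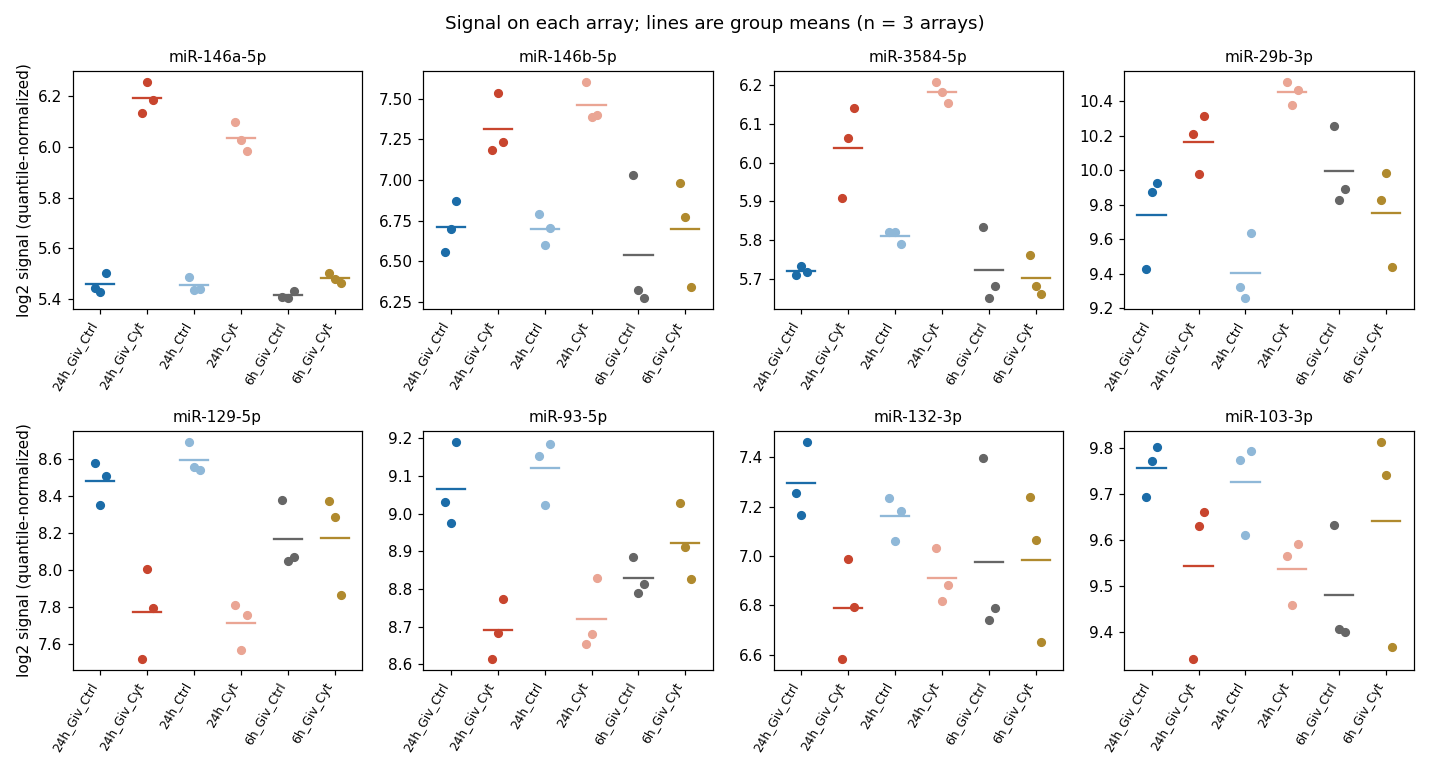
Quantile-normalized log2 signal (vertical axis) of 8 miRs on each array of 6 groups (horizontal axis); points are arrays and lines are group means of 3 arrays. For miR-146a-5p the 24h_Giv_Cyt arrays sit between 6.14 and 6.26 and the 24h_Giv_Ctrl arrays between 5.43 and 5.50.

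The cluster of miR-106b, miR-93 and miR-25 lies within a short stretch of chromosome 12, and of its 3 detected members limma called miR-93-5p. Differences between members were not tested. miR-106b-5p, with the seed of miR-93-5p, had a log2FC of 0.03 and overlapping groups, and miR-25-3p had -0.24 (adjusted p = 0.432) with every cytokine array lower. The latter was -0.013 with outlier spots left out, -0.12 without the outlying arrays and 0.25 without normalization between arrays. With the cluster that runs from miR-17-5p to miR-92a-3p, the list held 9 miRs, of which 3 were detected. From this list 1 was called, lower, beside 0.528% of all miRs. The median of the detected was -0.24, or 0.25 without normalization between arrays.

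The miR-29 family, which represses collagens and anti-apoptotic proteins, had 3 detected members of 7 measured. limma called 0, with 1 at an unadjusted p below 0.05 and 2 called by the pooled correlation over the spots. Over all 758 miRs these shares were 0.528%, 12.3% and 5.67%. For miR-29b-3p the log2 signals were 9.43, 9.87 and 9.93 in 24h_Giv_Ctrl and 10.21, 9.98 and 10.31 in 24h_Giv_Cyt. Replicate 1 was the lowest control array, and the gap between the closest arrays of the groups was small. Its log2FC was 0.42 (SE 0.16, n = 3, adjusted p = 0.289 by limma after Benjamini-Hochberg adjustment), with 0.67 within slide 4 and 0.41 within slide 3. For miR-29c-3p and miR-29a-3p the log2FC was 0.35 and 0.28 (adjusted p = 0.453 and 0.463). All 3 had every cytokine array above every control array, beside 8.31% of all 758 miRs and 13 of the 143 detected. Without replicate 1 of 24h_Giv_Ctrl, miR-29b-3p was 0.27, miR-29c-3p 0.22 and miR-29a-3p 0.14. With all arrays, their median of 0.35 stood beside 0.00078 over all detected miRs, but with the processed signal scaled over all miRs the 3 were lower with cytokines, at a median of -0.15 where that of the detected miRs was -0.36. With array brightness as a covariate their median was 0.15, and without normalization between arrays it was 0.76, with miR-29b-3p (0.80) and miR-29c-3p (0.76) called (adjusted p = 0.0453 for both). In 24h_Cyt vs 24h_Ctrl, without Givinostat, the median of the 3 was 0.76.

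Of the 12 miRs listed as responsive to NF-κB, 5 were detected, and 1, miR-146a-5p, was called, where the share over all miRs was 0.528%. At an unadjusted p below 0.05 there were 4, and the pooled correlation over the spots called 4, miR-146a-5p and miR-146b-5p higher and miR-132-3p and miR-212-3p lower, where the shares over all miRs were 12.3% and 5.67%. The 5 did not lie on one side: besides the miR-146 members, miR-21-5p, which is induced in many inflamed tissues, had a log2FC of 0.08, and miR-132-3p and miR-212-3p were on the low side. Their median was 0.08, and it was -0.19 with the processed signal scaled over all miRs and -0.13 with array brightness as a covariate. miR-146a-5p counts among the 5 through 24h_Giv_Cyt alone, since no control array had it well above background. Without miR-146a-5p the members had 0.61, 0.08, -0.40 and -0.51, and their median was negative. Both arms of miR-155, an immune miR, were well above background on no array.

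miR-132-3p and miR-212-3p share a seed and a primary transcript on chromosome 10 that CREB activates. For miR-132-3p the log2 signals were 7.26, 7.17 and 7.46 in 24h_Giv_Ctrl and 6.58, 6.99 and 6.79 in 24h_Giv_Cyt. Every cytokine array was lower, the outlying replicate 1 the lowest. The log2FC was -0.51 (SE 0.16, n = 3, adjusted p = 0.202 by limma after Benjamini-Hochberg adjustment), with -0.47 within slide 4 and -0.52 within slide 3. It was -0.32 without the outlying arrays and -0.026 without normalization between arrays, and the pooled correlation over the spots called it (adjusted p = 0.00154). For miR-212-3p the log2FC was -0.40 (adjusted p = 0.308), again with no overlap, but -0.26 without the outlying arrays and 0.090 without normalization between arrays. miR-103-3p and miR-107-3p, which share a seed and act on insulin sensitivity, had -0.21 and -0.26 (adjusted p = 0.442 and 0.241), likewise without overlap, but 0.23 and 0.22 without normalization between arrays and -0.088 and -0.13 without the outlying arrays. Beside these, every cytokine array was lower for 15.3% of all 758 miRs and for 16 of the 143 detected.

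Of the 13 detected miRs without overlap on the higher side, 10 are named, among them miR-196c-3p (log2FC 0.26), miR-761 (0.15) and miR-3596c (0.15), none of which passed the test (adjusted p = 0.532, 0.491 and 0.612). No control array had miR-761 well above background, so it counts as detected through 24h_Giv_Cyt alone. Its value is a difference in measured signal and gives no fold. Without the outlying arrays their values were 0.034, 0.096 and 0.030. Both the pooled correlation over the spots and limma without normalization between arrays called all 3. On the lower side, miR-361-5p had -0.22 and miR-1949 had -0.22 (adjusted p = 0.463 and 0.503), but 0.19 and 0.23 without normalization between arrays and -0.10 and -0.12 without the outlying arrays.

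The reference miRs of the study's qRT-PCR were let-7c, miR-103a and miR-423, which gave 4 miRs on the array because the arm of miR-423 is not stated and both were taken. Of these, let-7c-5p (-0.15) and miR-103-3p (-0.21) were detected. Of the list limma called 0, with 0 at an unadjusted p below 0.05 and 0 by the pooled correlation over the spots, and its detected members had a median of -0.18, or 0.22 without normalization between arrays.

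Among 15 miRs listed for β-cells and islets, 14 were on the array and 9 were detected. Of the list 1, miR-129-5p, was called, where the share over all miRs was 0.528%. This miR, also enriched in the nervous system, was not on the list of neuron miRs, so the counts of both lists depend on where it was placed. miR-7a-5p, an islet miR and among the 5 brightest on these arrays, had log2 signals of 10.71, 10.74 and 10.77 in 24h_Giv_Ctrl and 10.59, 10.75 and 10.85 in 24h_Giv_Cyt. The groups overlapped. For miR-375-3p, the most studied islet miR and a brake on insulin secretion, the log2FC was -0.24 (adjusted p = 0.425 by limma after Benjamini-Hochberg adjustment, n = 3), but -0.50 within slide 4 and 0.014 within slide 3. The median of the 9 was -0.06, and it was 0.08 without the outlying arrays, 0.04 with the processed signal scaled over detected miRs and 0.41 without normalization between arrays.

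The islet markers miR-375-3p and miR-7a-5p were bright, while markers of other cell types were mostly near background. Islet miRs were not all bright. Of the 14 β-cell and islet miRs on the array, 4 stayed near background on all 6 arrays: miR-7a-1-3p, miR-7b, miR-184 and miR-148a-3p. The 6 blood miRs, the liver miR miR-122-5p and 6 of 7 fibroblast and vessel miRs stayed near background on all 6 arrays. The other arm of the liver miR, miR-122-3p, was not: its log2 signals were 6.37, 6.35 and 6.19 in 24h_Giv_Ctrl and 6.58, 6.43 and 6.45 in 24h_Giv_Cyt. All 6 arrays had it well above background and the groups did not overlap, with a log2FC of 0.18 (adjusted p = 0.548), or 0.076 without the outlying arrays. The pooled correlation called it (adjusted p = 0.00583), as did limma without normalization between arrays. Of the muscle miRs miR-206-3p was detected (log2FC 0.10, or -0.06 without the outlying arrays and -0.03 with the processed signal scaled over all miRs), and of the 5 neuron miRs miR-128-3p (-0.30) and miR-124-3p (-0.02); the neuron median of -0.16 was 0.0017 without the outlying arrays, 0.0032 with the processed signal scaled over detected miRs and 0.24 without normalization between arrays. limma called 0 of the listed miRs of other cell types. With an unadjusted p below 0.05 there were 2 of 6 blood miRs and 1 of 7 of fibroblasts and vessels. The pooled correlation called 1 of each, where the shares over all miRs were 12.3% unadjusted and 5.67% by the pooled correlation.

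**Figure D2:**
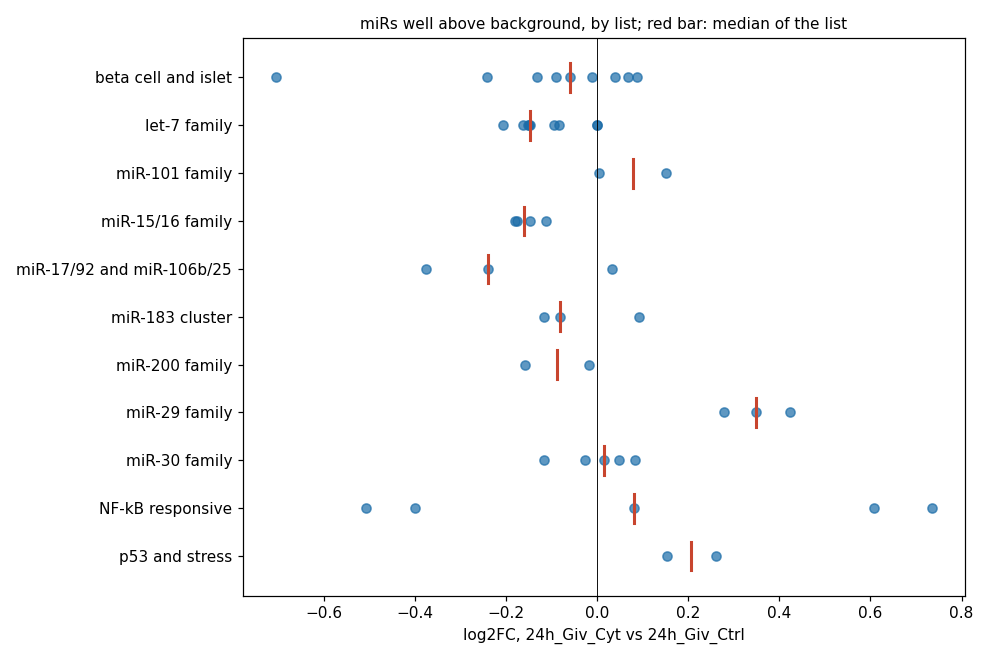
log2FC of 24h_Giv_Cyt against 24h_Giv_Ctrl (horizontal axis) for the detected members of each list (vertical axis); points are miRs and red bars are the median of each list. The miR-29 family lies between 0.28 and 0.42 and the miR-15/16 family between -0.18 and -0.11; with the processed signal scaled over all miRs the miR-29 median was -0.15, and without normalization between arrays the miR-15/16 median was 0.27.

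The let-7 family, whose members repress growth genes, had all 9 members detected, 7 with negative values. Their median was -0.15, against 0.30 without normalization between arrays. limma called 0, with 1 at an unadjusted p below 0.05 and 0 by the pooled correlation, beside 0.528%, 12.3% and 5.67% of all miRs. In let-7b-5p the log2FC was -0.21 and in let-7a-5p, the brightest of the family, -0.10. The miR-15/16 family, which restrains the cell cycle, had 4 detected members, all with negative values (median -0.16, or 0.27 without normalization between arrays). For the miR-30 family the 5 values lay between -0.12 and 0.08, with a median of 0.01 that was -0.04 with the median of the spots, the deposited log2 table or array brightness as a covariate and -0.36 with the processed signal scaled over all miRs. Of the miR-15/16 and miR-30 families limma called 0, with 0 at an unadjusted p below 0.05 and 0 by the pooled correlation.

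Among the miRs of p53 and stress, miR-192-5p and miR-194-5p, which share a transcript, had 0.26 and 0.15 (adjusted p = 0.503 and 0.585), and their median of 0.21 was -0.21 with the processed signal scaled over all miRs. Of the miR-183 cluster, which is shared by sensory and endocrine cells, miR-182 had -0.12 (adjusted p = 0.161) with every cytokine array lower. With the median of the spots and with the deposited log2 table limma called it, at -0.27 in each (adjusted p = 0.0138 for both), and without normalization between arrays it was 0.32. The 3 had a median of -0.08, or 0.34 without normalization between arrays. The miR-200 family, markers of epithelium, had 2 detected members with a median of -0.09, but 0.07 without the outlying arrays, 0.03 with the processed signal scaled over detected miRs and 0.38 without normalization between arrays. miR-101a-3p and miR-101b-3p had a median of 0.08, or -0.08 with array brightness as a covariate. No control array had miR-101a-3p well above background, so it was detected through 24h_Giv_Cyt alone and this median rests in part on a difference in measured signal. In these 4 groups limma called 0, against 1 at an unadjusted p below 0.05, miR-182, and 1 by the pooled correlation, miR-101a-3p. Of the 12 miRs that the study listed at 24 h, which were chosen on these samples and so give no independent evidence, limma called miR-3584-5p and miR-146a-5p. At an unadjusted p below 0.05 there were 2, and the pooled correlation called 5, these and miR-29c-3p, miR-101a-3p and miR-652-5p. Beside these counts and those of the 4 groups, the shares over all miRs were 0.528% by limma, 12.3% unadjusted and 5.67% by the pooled correlation. The 9 detected of the study's list had a median of 0.09. It was -0.30 with the processed signal scaled over all miRs and -0.0022 with array brightness as a covariate. Of these, miR-146a-5p and miR-101a-3p were detected through 24h_Giv_Cyt alone. Without these members the middle value was that of miR-7a-2-3p, 0.04.

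The cytokine effect with and without Givinostat was compared over groups that share no array. All arrays of 24h_Ctrl lay on slide 4, and those of 24h_Cyt on slides 1 and 2, so every value without Givinostat compares arrays across slides and none can be had within one. The term for the difference, the effect with Givinostat minus the effect without, passed an adjusted p of 0.05 in limma for 0 of 758 miRs. Its unadjusted p was below 0.05 for 39 (5.15%), while the pooled correlation over the spots called 22. For miR-146a-5p the term was 0.15 and for miR-29b-3p -0.62 (adjusted p = 0.775 and 0.786), and for miR-129-5p and miR-93-5p it was 0.18 and 0.02. The miR-146a-5p term is a difference in measured signal, since neither control group had it well above background on any array. A p above the threshold does not show that the effects were equal.

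Over the 143 detected miRs, which are not independent replicates, the log2FC with Givinostat correlated with that without it at r = 0.534 (Spearman's rho 0.413), and 85 of 143 had the same sign. All 4 miRs called under Givinostat were among the 30 (3.96%) called without it. Of those 30, which were chosen for their effect without Givinostat, 30 had the same sign under Givinostat. The log2FC was smaller in size under Givinostat for 29 of the 30, and the median ratio, with Givinostat to without, was 0.44. Choosing miRs by the effect without Givinostat itself favours larger values on that side, so neither count measures how far the response was kept. Array brightness differed more without Givinostat: the 75th percentile was 1003, 742 and 596 in 24h_Cyt against 347, 271 and 347 in 24h_Ctrl, with 211, 177 and 176 miRs well above background against 148, 150 and 134. What part this had in the calls was not tested. Under Givinostat 9 of the 20 that were higher, and 6 of the 10 that were lower, had groups that did not overlap, beside 8.31% and 15.3% of all 758 miRs and 13 and 16 of the 143 detected.

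**Figure D3:**
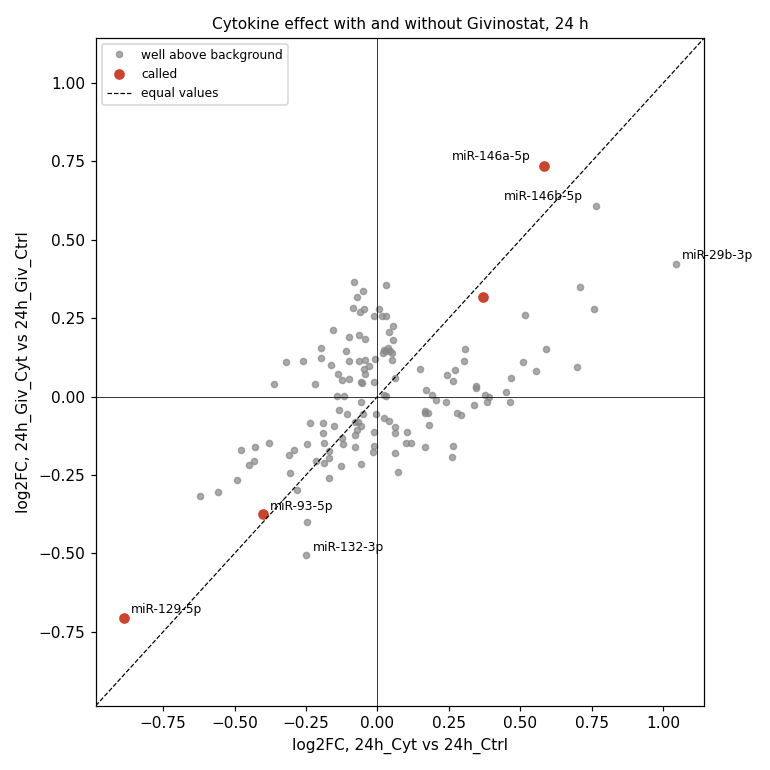
log2FC with cytokines without Givinostat (24h_Cyt vs 24h_Ctrl, horizontal axis) and with it (24h_Giv_Cyt vs 24h_Giv_Ctrl, vertical axis) for the 143 detected miRs (grey) and the miRs called under Givinostat (red); the dashed line marks equal values. miR-29b-3p lies below the line, at 1.04 and 0.42; miR-146a-5p, at 0.58 and 0.73, had no control array well above background in either comparison, so its place beside the line gives no ratio of folds.

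Values within each slide were compared. Over the 143 detected miRs the log2FC within slide 4 and within slide 3 correlated at r = 0.662, and 107 of 143 had the same sign. The values within slide 4 rest on 1 control array and those within slide 3 on 1 cytokine array.

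**Figure D4:**
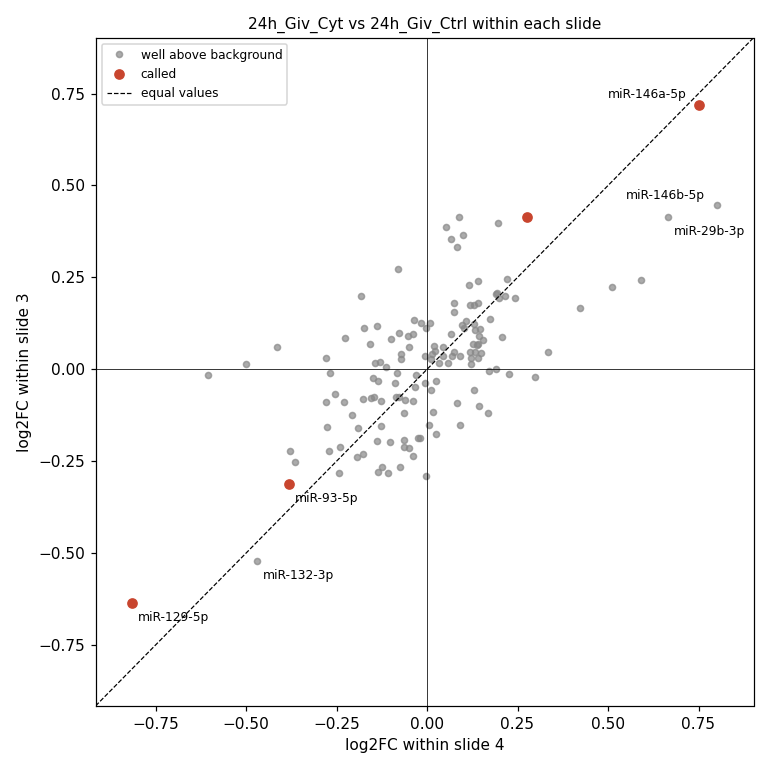
log2FC of 24h_Giv_Cyt against 24h_Giv_Ctrl within slide 4 (horizontal axis) and within slide 3 (vertical axis) for the 143 detected miRs (grey) and the called miRs (red); the dashed line marks equal values. miR-146a-5p lies near the line at 0.75 and 0.72, and miR-129-5p at -0.82 and -0.64.

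At 6 h under Givinostat limma called 0 of 758 miRs in 6h_Giv_Cyt vs 6h_Giv_Ctrl, with 27 at an unadjusted p below 0.05 and 0 by the pooled correlation over the spots. The arrays of 6h_Giv_Cyt lay on slide 3 and those of 6h_Giv_Ctrl on slides 1 and 2, so no slide held both, and the values at 6 h and the difference between times rest on arrays compared across slides. The 6 h arrays also varied more: the mean correlation with the rest of the group was 0.899 for replicate 1 of 6h_Giv_Ctrl, the brightest of its group (75th percentile 682 against 401 and 311), and 0.932 for replicate 3 of 6h_Giv_Cyt, where the 6 arrays at 24 h had 0.980 to 0.990. miR-146a-5p had a log2FC of 0.07 there, miR-3584-5p of -0.02, miR-93-5p of 0.09 and miR-129-5p of 0.0071. No array at 6 h had miR-146a-5p or miR-3584-5p well above background. The term for the difference, the effect at 24 h minus that at 6 h, passed an adjusted p of 0.05 in limma for 6 miRs (0.792%). miR-146a-5p had a term of 0.67 (adjusted p = 1.57e-08), while those of miR-3584-5p and miR-93-5p were 0.34 and -0.47 (adjusted p = 0.0292 for both). The others, miR-6331, miR-190a-5p and miR-762, were well above background on no array at all. For these 3, and for miR-146a-5p and miR-3584-5p with 3 of the 4 groups near background, the terms are differences in measured signal and give no fold. miR-762 was named after its values were seen. Under a fixed block for slide the miR-146a-5p term was 0.71 (adjusted p = 0.000279) and the other 5 did not pass. Leaving out 1 array often left fewer of the 6. It left 1 without replicate 1 of 24h_Giv_Ctrl or replicate 2 of 24h_Giv_Cyt. There were 2 without replicate 2 or 3 of 24h_Giv_Ctrl or replicate 3 of 6h_Giv_Ctrl. Without replicate 3 of 24h_Giv_Cyt or any 1 replicate of 6h_Giv_Cyt there were 3. Without replicate 1 of 24h_Giv_Cyt or replicate 1 or 2 of 6h_Giv_Ctrl there were 4. Omitting replicate 2 of 24h_Ctrl or 24h_Cyt, or replicate 1 or 2 of 6h_Cyt, left 5. Each other array left out kept all 6. miR-146a-5p passed without each of the 24 arrays, and without normalization between arrays the miR-93-5p term was 0.12. For miR-129-5p the term was -0.71 (adjusted p = 0.136), so a difference between the times was not shown.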

How the data were processed

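For each of the 24 arrays, the authors deposited a scanner file of linear intensity values that were not normalized between arrays, written per the file headers by Agilent Feature Extraction 10.7.3.1 (the sample labels name version 9.1). Deposited too was a table in log2, used here as an alternative. As in the paper's methods, the median foreground intensity was used without background correction, control spots were removed, log2 was taken and arrays were quantile-normalized. The order of these last steps was settled after the number of calls was known under each (4 in both), and the other order is among the alternatives. The 16 spots of a miR were averaged and limma 3.58.1 in R 4.3.3 was fitted to all arrays, with 8 group means, 16 residual degrees of freedom and Benjamini-Hochberg adjustment over 758 miRs. All adjusted p are limma's. Terms for differences between effects had no log2FC threshold. The array replaced the spot as the unit because spots of an array share their RNA, and the paper's fit is an alternative. The script was tested on simulated data.

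Named, or carried through the alternatives, are the called miRs, the 10 higher and 10 lower detected miRs with the largest log2FC and no overlap, at most 5 called miRs per difference term, the 5 brightest, and at most 4 bright members of each list (β-cell and islet, NF-κB, seed families and clusters, p53 and stress, reference miRs, the study's list, other cell types), with miR-146a-5p and miR-146b-5p. The members and lists were chosen with earlier results of these data known. Leaving out both outlying arrays, and the other order of log2 and quantile normalization, were alternatives chosen after seeing the data. Figures were drawn with matplotlib. The study's other experiments were not used.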

Additional observations from a re-analysis of the deposited data

Results flagged for a closer look

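The cytokine effect under Givinostat differed between 24 h and 6 h for 6 miRs, by limma's term for the effect at 24 h minus that at 6 h (adjusted p below the threshold over 758 miRs). For miR-146a-5p the term was 0.67 on the log2 scale, for miR-3584-5p 0.34 and for miR-93-5p -0.47. For miR-762 it was 0.14, for miR-6331 -0.12 and for miR-190a-5p -0.12, all near background on every array. Every array at 6 h and of 24h_Giv_Ctrl also had miR-3584-5p and miR-146a-5p near background, so these terms too are differences in measured signal and give no fold. No slide held both groups at 6 h, and with slide as a fixed block limma called 1 of the 6, miR-146a-5p. What lies behind these differences was not tested.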

How the results depend on the processing

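The call of miR-146a-5p held under every alternative, and miR-3584-5p kept its sign under each. The 4 calls in 24h_Giv_Cyt vs 24h_Giv_Ctrl became 43 with the pooled correlation over the spots (34 higher, 9 lower, 3 of the 4), 7 with the processed signal scaled over detected miRs (5 higher, 2 lower, all 4), 2 with that signal scaled over all miRs (1 of the 4), 323 without normalization between arrays (all higher, 2 of the 4), 1 with only the compared arrays and 9 with no log2FC threshold (4 higher, 5 lower). For the pooled correlation, the compared arrays alone and no threshold, the construction itself differs (spots as units, fewer samples, no fold needed). The pooled fit keeps each log2FC and changes its SE, at a correlation of 0.037 between spots. For miR-146b-5p the SE went from 0.18 to 0.069, and for miR-146a-5p from 0.032 to 0.043. Elsewhere the cause was not tested. Without normalization between arrays the median of all miRs was 0.18. Leaving out each array in turn gave 3 to 5 calls. A group left with 2 arrays was taken to vary like the others. miRs near background, 560 of 758, limit what the signal can show.

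With the replicate number as a block, taken as a pairing, 4 miRs were called in 24h_Giv_Cyt vs 24h_Giv_Ctrl (all 4 shared), 0 in the difference with minus without Givinostat and 5 in the difference between times (all 5 shared). Whether the replicate numbers pair arrays is not known. Over the detected miRs the same-numbered arrays' deviations from their group means correlated at 0.644, -0.583 and 0.687. Differently numbered arrays ranged from -0.820 to 0.689. With 3 arrays per group, whose deviations add up to 0, these values cannot decide it.

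For the cytokine effect with minus without Givinostat, 0 calls became 22 with the pooled correlation over the spots, 3 with the processed signal scaled over detected miRs, 1 with it scaled over all miRs and 1 without normalization between arrays; leaving out each array gave 0 each time by limma, beside 39 at an unadjusted p below 0.05 with all arrays. For the effect at 24 h minus that at 6 h, 6 calls became 18 with the pooled correlation (5 of the 6), 3 with slide as a random block, 1 with slide as a fixed block, and 2 with the median of the spots, with the deposited log2 table, with outlier spots left out, without normalization between arrays and with detected miRs only. It was 1 with the processed signal scaled over all miRs, with array brightness as a covariate and with only the compared arrays, and 1 to 8 when each array was left out. Within a slide neither term can be had, since no slide holds all 4 groups of either.

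Of 1557 values of the 76 named miRs under the other alternatives, 1357 kept their sign and their side of the threshold or, within a slide, moved by less than the spread between arrays, which for small values can include a turn of sign. Of the rest, 44 passed the threshold newly, 10 no longer passed, 119 turned sign and 27, within a slide, moved by more than that spread. The processed signal scaled over all miRs left 9 miRs, and scaled over detected miRs 8, with both groups at the floor and so without a value. With the median of the spots, the sign turned for let-7f-5p -0.025, miR-101b-3p -0.017, miR-142-3p 0.00063, miR-199a-3p 0.0078, miR-30b-5p -0.035. With the mean in place of the median of each spot's pixels, the sign turned for let-7f-5p -0.015, miR-199a-3p 0.0026, miR-423-5p -0.0074. With normexp background correction, the sign turned for miR-423-5p -0.0037. With the processed signal scaled over detected miRs, the sign turned for let-7f-5p -0.072, miR-124-3p 0.23, miR-141-3p 0.043, miR-199a-3p 0.17, miR-200c-3p 0.012, miR-219a-5p 0.19, miR-29c-5p 0.17, miR-30d-5p 0.027, miR-30e-5p 0.18, miR-7a-5p 0.037. With the processed signal scaled over all miRs, the sign turned for let-7f-5p -0.61, miR-101b-3p -0.24, miR-106b-5p -0.53, miR-133b-3p -0.012, miR-192-5p -0.16, miR-194-5p -0.26, miR-206-3p -0.030, miR-21-5p -0.19, miR-23b-3p -0.54, miR-26a-5p -0.50, miR-29a-3p -0.26, miR-29b-3p -0.15, miR-29c-3p -0.15, miR-30a-5p -0.14, miR-30b-5p -0.36, miR-423-5p -0.034, miR-466b-2-3p -0.46, miR-96-5p -0.36. With no normalization between arrays, the sign turned for let-7a-5p 0.25, let-7b-5p 0.26, let-7c-5p 0.21, miR-103-3p 0.23, miR-107-3p 0.22, miR-124-3p 0.31, miR-126a-3p 0.15, miR-128-3p 0.16, miR-141-3p 0.43, miR-142-3p 0.14, miR-15b-5p 0.29, miR-16-5p 0.27, miR-182 0.32, miR-183-5p 0.34, miR-190a-5p 0.089, miR-1949 0.23, miR-195-5p 0.25, miR-199a-3p 0.20, miR-200c-3p 0.34, miR-212-3p 0.090, miR-219a-5p 0.22, miR-223-3p 0.11, miR-24-3p 0.27, miR-25-3p 0.25, miR-29c-5p 0.25, miR-30d-5p 0.38, miR-30e-5p 0.42, miR-361-5p 0.19, miR-375-3p 0.16, miR-429 0.15, miR-451-5p 0.10, miR-497-5p 0.27, miR-6331 0.071, miR-652-5p 0.15, miR-7a-5p 0.47, miR-93-5p 0.066. With outlier spots left out, the sign turned for miR-101b-3p -0.042, miR-106b-5p -0.016, miR-124-3p 0.011, miR-133b-3p -0.0083, miR-141-3p 0.084, miR-16-5p 0.0070, miR-199a-3p 0.010. With slide as a fixed block, the sign turned for miR-124-3p 0.027, miR-141-3p 0.068, miR-30e-5p 0.040, miR-466b-2-3p -0.0090, miR-7a-5p 0.029. With array brightness as a covariate, the sign turned for let-7f-5p -0.049, miR-101a-3p -0.0022, miR-101b-3p -0.16, miR-106b-5p -0.076, miR-199a-3p 0.0020, miR-21-5p -0.13, miR-30a-5p -0.038, miR-30b-5p -0.022, miR-423-3p -0.011, miR-423-5p -0.0035, miR-429 0.012, miR-499-5p -0.0032, miR-96-5p -0.043, miR-9a-5p -0.040. With the deposited log2 table, the sign turned for let-7f-5p -0.027, miR-101b-3p -0.018, miR-142-3p 0.00059, miR-199a-3p 0.0079, miR-30b-5p -0.036. With replicate 1 of 24h_Giv_Cyt and replicate 3 of 24h_Giv_Ctrl both left out, the sign turned for miR-124-3p 0.11, miR-133b-3p -0.0074, miR-141-3p 0.11, miR-200b-3p -0.0086, miR-200c-3p 0.025, miR-206-3p -0.056, miR-214-3p -0.020, miR-219a-5p 0.032, miR-29c-5p 0.0069, miR-30d-5p 0.017, miR-30e-5p 0.11, miR-34a-5p -0.013, miR-423-3p -0.014, miR-466b-2-3p -0.29, miR-7a-5p 0.076. The cause was not tested.

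Leaving out each array in turn kept the sign of 58 of the 76 miRs in all 24 fits. The others ran over 0: let-7f-5p from -0.043 to 0.026, miR-101b-3p from -0.095 to 0.099, miR-106b-5p from -0.040 to 0.12, miR-124-3p from -0.069 to 0.056, miR-133b-3p from -0.0040 to 0.019, miR-141-3p from -0.12 to 0.12, miR-199a-3p from -0.0077 to 0.0079, miR-200b-3p from -0.0059 to 0.064, miR-21-5p from -0.030 to 0.17, miR-219a-5p from -0.060 to 0.0050, miR-30b-5p from -0.086 to 0.10, miR-30e-5p from -0.095 to 0.049, miR-423-3p from -0.010 to 0.019, miR-423-5p from -0.015 to 0.033, miR-466b-2-3p from -0.13 to 0.27, miR-7a-5p from -0.071 to 0.060, miR-96-5p from -0.052 to 0.17, miR-9a-5p from -0.021 to 0.046.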
